A study of Mus musculus with 22 samples.

Results

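Immunoglobulin transcripts were followed through 56 of the 22690 probe sets of the Affymetrix MOE430A mouse array, in normal B cells, in premalignant B cells that overexpress Myc and in 13 independent B cell lymphomas. A probe set was taken as a member when any of its gene symbols belonged to the heavy chain genes (23 probe sets), the kappa light chain genes (29), the lambda light chain genes (3) or the joining chain gene Jchain (1). The surrogate light chain gene Igll1 was not a member, and a probe set carrying several symbols was kept. The study hybridised RNA from 4 wild type samples, 5 samples of premalignant Eμ-Myc transgenic B cells and 13 Eμ-Myc lymphomas, all on a C57Bl/6 background. Littermates aged 4 to 6 weeks gave the wild type and the premalignant cells, which the labels call B220+; the lymphoma labels name no surface marker. The labels repeat that age for the lymphomas, whereas the design text ties it to the littermates alone, and each lymphoma came from a different mouse, so no lymphoma has a replicate of its own. In Eμ-Myc mice an immunoglobulin heavy chain enhancer drives a Myc transgene in B lineage cells. The labels give bone marrow or spleen as the source of every group and beads against B220 or IgM as the means of purification, without saying which was used for which array. Values are log2 GCRMA intensities (GCRMA is a background correction and summary over the probes of a probe set). A probe set was tested when it exceeded log2 4 on at least 4 of the 22 arrays, which 10789 probe sets did.

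An antibody consists of paired heavy and light chains. In each B cell the variable part of each chain is assembled from V and J segments, with D segments in the heavy chain. The Rag1 and Rag2 recombinase does this. A mature B cell generally makes 1 heavy chain and 1 light chain, either kappa or lambda. The descendants of that cell share the rearrangements behind these chains. A B cell population holds many rearranged V segments side by side and a clone holds few, so a tumour's V segment transcripts are often used as a sign of clonality. IgM (Ighm) is the first heavy chain class made, IgG3 (Ighg3) and IgA (Igha) arise by class switching, and the J chain joins antibody units into the polymers that plasma cells secrete.

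Of the 56 members, 39 passed the filter, comprising 14 of the heavy chain, 21 of the kappa chain, all 3 of the lambda chain and Jchain. The other 17 were dim throughout, with values between 2.27 and 4.40, and were not tested. Because a member could pass through 1 bright group alone, counts of called members below are over the 39. They are set against the same count over all probe sets tested. Of the 39, 36 exceeded log2 4 on every wild type array and 31 on every premalignant array, but only 8 on every lymphoma array. A wild type array had 36 to 39 members above log2 4 (median 38.5), a premalignant array 32 to 38 (median 37) and a lymphoma 9 to 27 (median 15). No lymphoma had as many members above the filter level as any wild type or premalignant array. These counts use the level that chose the 39, so members that passed through the other groups alone lower them in lymphomas. They were not made over all probe sets.

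**Figure D1:**
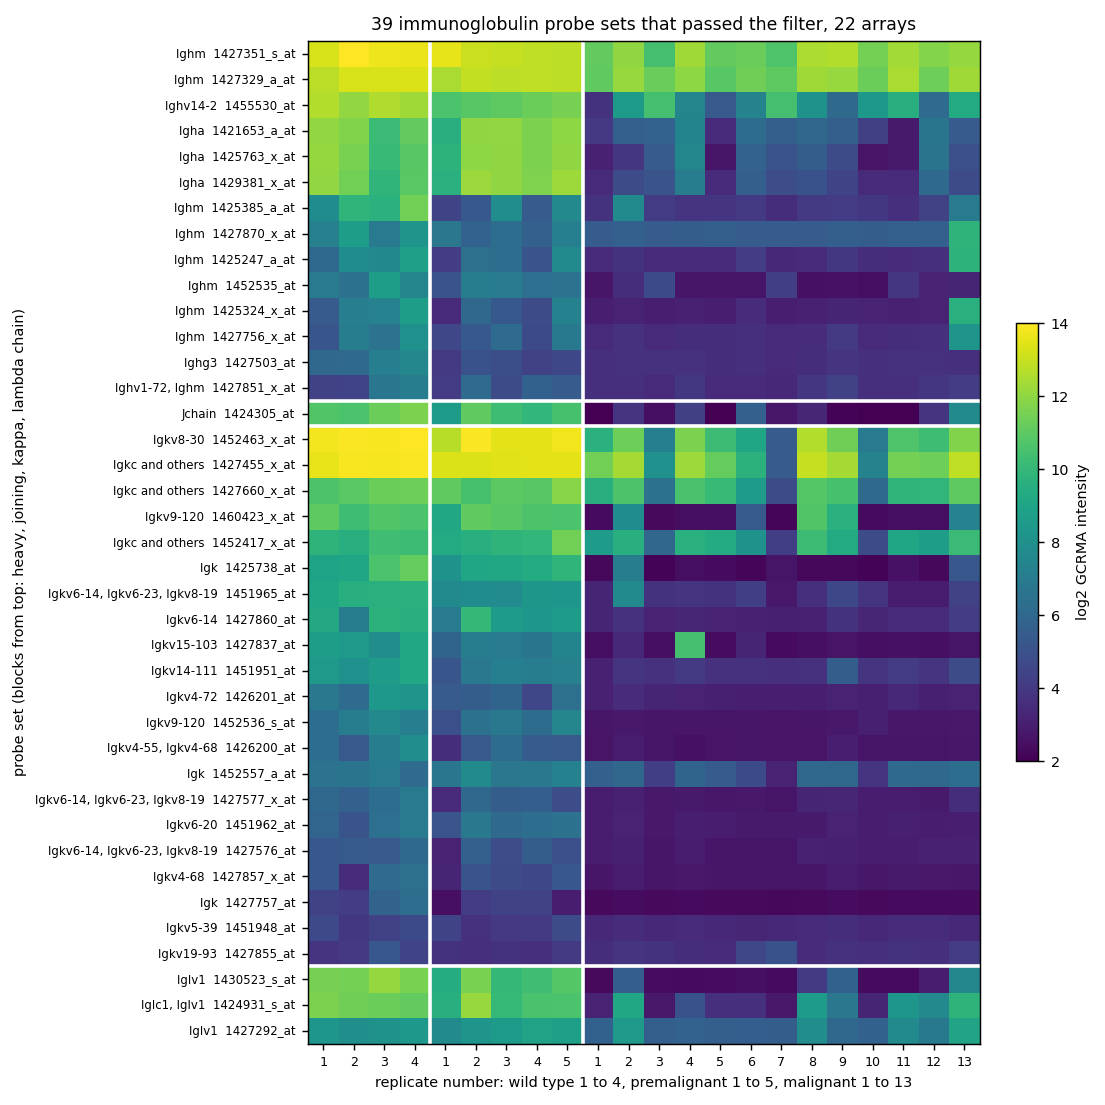
Log2 GCRMA intensity (colour) of the 39 immunoglobulin probe sets that passed the filter (rows, in blocks of heavy, joining, kappa and lambda chain) on the 22 arrays (columns, by group and replicate number). Most kappa V segment rows are dark in the lymphomas, with single bright cells such as Igkv15-103 in lymphoma 4, where the value is 10.48.

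The B cell identity of the arrays was read from 8 markers, of which 7 are on the array and 6 were tested. Cd79a, the receptor's signalling partner, averaged 13.02 in wild type, 12.53 in premalignant and 11.50 in malignant arrays. The mean over the B cell list lay between 10.5 and 10.8 in wild type, between 10.0 and 10.2 in premalignant and between 7.53 and 9.15 in malignant arrays. Of the 6 tested, 4 were lower in premalignant than in wild type cells and 6 lower in lymphomas than in premalignant cells. No T cell marker passed the filter, and the mean over that list lay between 2.80 and 3.37 on every array. Between lymphomas and premalignant cells, 2 of 8 monocyte markers were higher and 2 lower. None of 5 neutrophil, 2 erythroid and 3 salivary gland markers was called. Between premalignant and wild type cells no monocyte, neutrophil, erythroid or salivary gland marker was called. The mean over the neutrophil list was 4.40 to 4.87 on premalignant and 2.93 to 7.78 on lymphoma arrays. For the salivary gland list it was 2.83 to 3.21 and 2.76 to 6.80. Some lymphomas thus exceeded every premalignant array on these lists. The erythroid list ran the other way, at 2.66 to 7.74 and 2.47 to 3.26. Of the stroma and endothelium list, 4 of 6 tested genes were higher in lymphomas than in premalignant cells and 1 lower. Its mean lay between 3.43 and 3.62 in premalignant and between 5.09 and 7.03 in malignant arrays. The 3′ minus 5′ difference of the actin control, a sign of RNA integrity and labelling, averaged 0.77 in wild type, 0.70 in premalignant and 1.93 in malignant arrays. The part of the other cell types and of this actin difference in the results on lymphomas was not tested. In bulk RNA, fewer cells that express a gene and less of its RNA per cell cannot be told apart.

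The comparison of premalignant with wild type cells asks how immunoglobulin transcripts differ in Myc transgenic cells before a tumour forms. The part of Myc, of B cell stage and of the tissue or beads used in this difference was not tested. Of the 39 members, 11 were lower in premalignant cells and 0 were higher (limma, Benjamini-Hochberg adjusted p under 0.05 over all 10789 probe sets). At an unadjusted p under 0.05, too, 0 members were higher, in this comparison and in both comparisons of lymphomas. Over all probe sets, 11.7% were lower, 12.7% higher and 24.4% called in either direction, against 28.2% of the members, all of these lower. The median difference of the 39 members was -0.76 on the log2 scale, and that of all probe sets was -0.03. Of all probe sets called, 52.1% were higher; with arrays centred on their spike-in controls, which moved the median of all probe sets to 0.23, that share was 84.1%, and 8 members were lower. Members with no overlap between the groups numbered 6, all lower in premalignant cells, 15.4% of the 39 against 11.0% of all probe sets. The 11 comprised 5 of 14 heavy chain, 5 of 21 kappa chain and 1 of 3 lambda chain members.

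Among the heavy chains, the largest fall belonged to a probe set for Ighm, the IgM constant region (1425385_a_at). It read 7.82, 9.87, 9.68 and 11.46 on the 4 wild type arrays and 4.48, 5.30, 7.90, 5.46 and 7.63 on the 5 premalignant arrays. The groups overlapped by a single pair of arrays, wild type 1 and premalignant 3. The difference was -3.55 ± 0.84 (SE) log2 units, 11.7-fold, with an adjusted p of 0.012.

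Ighg3, the IgG3 constant region (1427503_at), read 6.01, 6.12, 7.15 and 7.55 in wild type and 4.06, 5.00, 4.86, 4.37 and 4.61 in premalignant cells. Every premalignant value lay below every wild type value. The fall was 4.36-fold (-2.13 ± 0.33, adjusted p = 0.0015).

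The V segment Ighv14-2 (1455530_at) read 12.62, 12.07, 12.59 and 12.27 in wild type and 10.60, 10.87, 11.03, 11.30 and 11.54 in premalignant cells, again without overlap. It fell 2.50-fold (-1.32 ± 0.21, adjusted p = 0.0015). The Ighm probe sets 1427870_x_at and 1427351_s_at were 2.71-fold and 1.57-fold lower (adjusted p = 0.027 and 0.046), calls that were lost in 5 and 7 of the 9 runs without 1 array.

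The other heavy chain members did not pass the test. The Ighm probe sets 1425324_x_at, 1425247_a_at, 1427756_x_at and 1452535_at differed by -1.79, -1.62, -1.19 and -0.99 log2 units. Their adjusted p was 0.12, 0.12, 0.18 and 0.17. For 1427329_a_at and 1427851_x_at (shared with Ighv1-72) the differences were -0.39 and -0.40 (adjusted p = 0.10 and 0.69). Without premalignant 5, 1425324_x_at and 1425247_a_at were called lower (adjusted p = 0.047 and 0.042). So was 1427329_a_at without wild type 1 (adjusted p = 0.032). The 3 Igha probe sets differed by 0.15, 0.30 and 0.47 log2 units in the direction of higher premalignant values, with SE of 0.55, 0.51 and 0.58. For example, 1421653_a_at read 12.07, 11.74, 10.18 and 11.11 in wild type and 9.51, 12.00, 12.03, 11.65 and 11.96 in premalignant cells, so that the ranges overlapped. Jchain read 10.74, 10.60, 11.30 and 11.65 in wild type and 8.53, 11.06, 10.28, 9.95 and 10.50 in premalignant cells. Its difference of -1.01 ± 0.44 was not called (adjusted p = 0.13).

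Of the kappa chain members, 4 V segment probe sets were called lower, each by more than 2-fold. Other V segment probe sets that fell were not called, such as 1426200_at (-1.46 log2 units) and 1427577_x_at (-1.18). Igkv15-103 (1427837_at) read 8.70, 8.46, 7.95 and 9.16 in wild type and 5.88, 7.06, 6.89, 6.68 and 7.39 in premalignant cells, which did not overlap, and fell 3.45-fold (adjusted p = 0.0028). Igkv14-111 (1451951_at) fell 3.63-fold (adjusted p = 0.0088) and Igkv4-72 (1426201_at) 3.56-fold (adjusted p = 0.022). A probe set shared by Igkv6-14, Igkv6-23 and Igkv8-19 (1451965_at) fell 2.83-fold (adjusted p = 4.9e-04), without overlap.

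The constant region of the kappa chain is covered by 3 probe sets, each annotated to Igkc together with Igkj1 and several V segments. The first of them (1427455_x_at) read 13.58 to 13.92 in wild type and 13.36 to 13.51 in premalignant cells and was 1.29-fold lower (adjusted p = 0.047). That call was lost in 8 of the 9 runs without 1 array (all but wild type 1) and under 7 of 13 other settings, with an adjusted p of 0.90 with spike-in centring and 0.86 in 1 fit over all 3 groups. The other pair (1427660_x_at and 1452417_x_at) differed by 0.00 ± 0.26 and 0.06 ± 0.38 log2 units. Of the lambda chain members, Iglv1 (1430523_s_at) was 2.38-fold lower (adjusted p = 0.034), a call lost in 6 of the 9 runs without 1 array, with adjusted p of 0.056 to 0.092, and under 6 of 12 other settings. The Iglc1 and Iglv1 probe set (1424931_s_at) differed by -0.79 ± 0.43 and was not called, although it was without premalignant 2 (-1.19, adjusted p = 0.0084).

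Several of these calls depended on single arrays. The count of 11 became 7 without wild type 3, premalignant 3 or premalignant 4, and 6 without wild type 4. Premalignant 1 was the lowest of the 5 premalignant arrays for 32 of the 39 members; without wild type 2 and premalignant 1, the arrays least like the rest of their groups, 10 were lower. Erythroid transcripts were present in wild type 1 and 2 and premalignant 2 (means over that list of 4.87, 6.59 and 7.74, against 2.66 to 3.45 on the other 6 arrays), and 12 members were lower without these 3 arrays. The falls of 1425385_a_at, Ighg3, Igkv14-111, Igkv15-103, 1451965_at and Ighv14-2 stayed called whichever single array was left out.

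**Figure D2:**
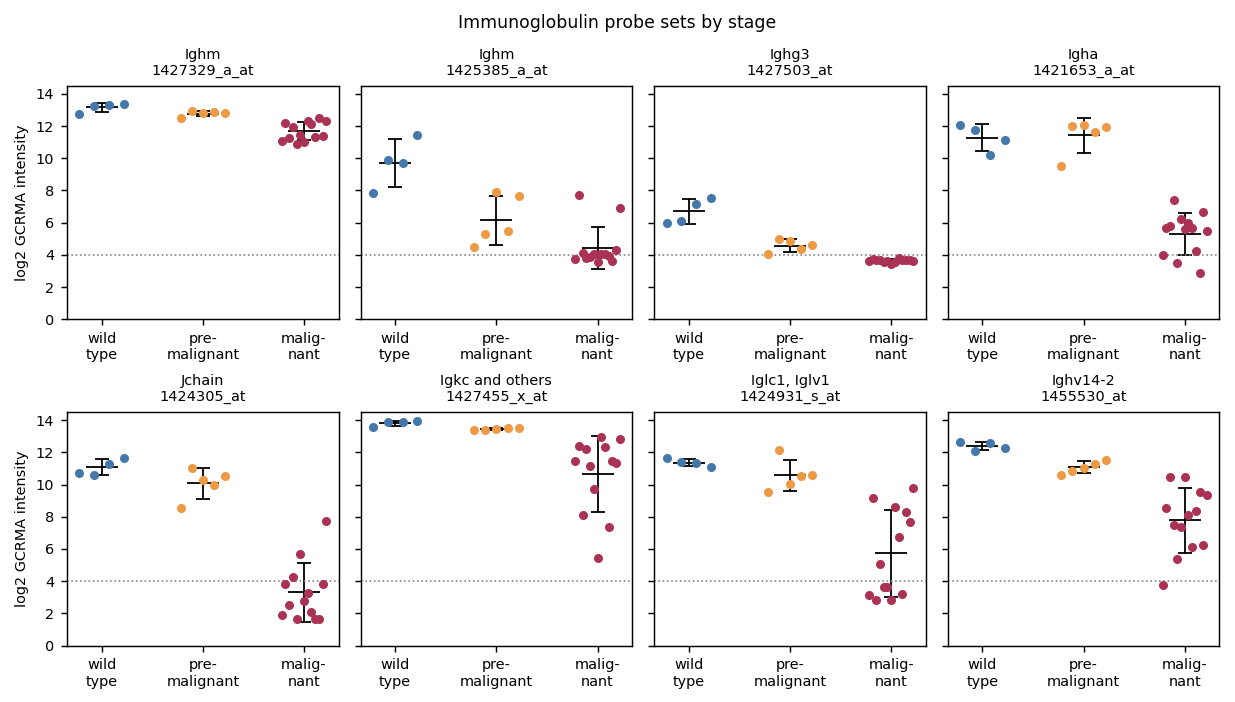
Log2 GCRMA intensity of 8 immunoglobulin probe sets in each wild type (n = 4), premalignant (n = 5) and malignant (n = 13) array, with the mean and SD as bars and the filter level of log2 4 as a dotted line. The Ighm probe set at the upper left averages 11.67 in lymphomas. For Jchain and Igha no lymphoma reaches the range of the wild type or premalignant arrays.

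The comparison of lymphomas with premalignant cells sets the tumours against the Myc-expressing cells of the stage before them. Of the 39 members, 33 were lower in lymphomas and 0 higher, that is 84.6% lower against 19.9% of all probe sets (43.2% of all were called in either direction). The 33 were 11 of 14 heavy chain, 18 of 21 kappa chain and all 3 lambda chain members and Jchain. The median difference was -2.41 log2 units over the members, or -1.88 with group means under 4 set to 4, and 0.05 over all probe sets. Groups did not overlap for 23 members, all lower, 59.0% against 6.89% of all probe sets. Against wild type cells, 36 of the 39 were lower and 0 higher (92.3%, against 30.3% of all probe sets lower and 60.8% called in either direction). With spike-in centring 33 members were lower in each of these comparisons; it moved the median of all probe sets to 0.18 and 0.40, and the share of higher calls among all probe sets called from 53.8% to 63.6% against premalignant and from 50.2% to 74.6% against wild type cells. Both comparisons share the lymphoma arrays and are given side by side below, and a fold is written as at least N-fold where 1 group mean lay below the filter level and was set to it.

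IgA and the joining chain showed some of the largest falls. The Igha probe set 1421653_a_at read 2.87 at the lowest, 5.65 at the median and 7.42 at the highest among the 13 lymphomas, below every wild type and premalignant value. It was 69.2-fold lower in lymphomas than in premalignant cells (-6.11 ± 0.60, adjusted p = 2.8e-07) and 62.2-fold lower than in wild type. The other pair of Igha probe sets, 1425763_x_at and 1429381_x_at, was 110.4-fold and 112.6-fold lower than in premalignant cells. Lymphoma 4 had the highest value on all 3, followed by lymphoma 12.

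Jchain read 1.66 at the lowest, 2.77 at the median and 7.76 at the highest among lymphomas, and only 3 lymphomas (4, 6 and 13) were above log2 4. It was at least 67.0-fold lower than in premalignant cells (adjusted p = 2.1e-06) and at least 134.7-fold lower than in wild type. Lymphomas 4, 6 and 13 also had the highest means over the salivary gland list, 6.77, 6.80 and 6.57, against at most 5.98 in the others. The part of salivary gland tissue in their Jchain values was not tested. Of the plasma cell markers, the regulator Prdm1 and the receptor Tnfrsf17 did not pass the filter, and 4 of the 8 tested were lower in lymphomas than in premalignant cells. Among these was Xbp1, the regulator of the secretory apparatus, which averaged 9.64 in wild type, 8.80 in premalignant and 7.40 in malignant arrays. In premalignant against wild type cells, 2 of the 8 plasma cell markers were higher and 1 lower.

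Jchain is the only member with a promoter sequence in the RefSeq table used here (GRCm38.p6, chr5:88527848-88528147, minus strand). It is shown because Jchain is among the members that fell most and because Myc binds some E boxes. The 4 matches to the general E box form, CANNTG, are in capitals. Binding of Myc to them was not tested.

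Jchain promoter: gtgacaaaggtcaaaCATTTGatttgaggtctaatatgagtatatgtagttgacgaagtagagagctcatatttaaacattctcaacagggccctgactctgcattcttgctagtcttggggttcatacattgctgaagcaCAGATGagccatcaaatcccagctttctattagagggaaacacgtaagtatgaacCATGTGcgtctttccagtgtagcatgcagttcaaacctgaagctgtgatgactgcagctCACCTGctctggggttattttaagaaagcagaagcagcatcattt

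CANNTG, searched on both strands, occurs in 72.31% of 32851 promoters of this length. The canonical Myc site CACGTG was not in this window and is in 7.15% of promoters. The octamer ATGCAAAT, the element of V segment promoters that Pou2f1 and Pou2f2 bind, was not in it either and is in 1.74%. The CANNTG search includes CACGTG.

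IgM transcripts divided by probe set. Of the 9 Ighm probe sets tested, 2 stayed well above the filter in every lymphoma. The first, 1427329_a_at, read 12.76, 13.25, 13.28 and 13.37 in wild type, 12.48, 12.91, 12.81, 12.87 and 12.79 in premalignant cells and 10.90, 11.41 and 12.47 at the lowest, median and highest in lymphomas. All lymphoma values were below all premalignant values, and the fall was 2.15-fold (-1.11 ± 0.25, adjusted p = 0.0014). The second, 1427351_s_at, was 2.57-fold lower (adjusted p = 0.0016) and read 10.47 to 12.61 in lymphomas.

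The other 7 had lymphoma medians of 2.75 to 5.55. The probe set 1452535_at was at least 5.33-fold lower than in premalignant cells (adjusted p = 1.4e-06), and 1427851_x_at, shared with Ighv1-72, at least 2.35-fold lower (adjusted p = 8.0e-05). For 1425247_a_at the lymphoma median was 3.54 against premalignant values of 4.17, 6.41, 6.35, 5.13 and 7.71, yet lymphoma 13 read 9.74. This probe set, 1425324_x_at and 1427870_x_at were not called against premalignant cells (adjusted p = 0.059, 0.096 and 0.50). Without lymphoma 13 all 3 were lower, with adjusted p of 4.6e-05, 1.0e-04 and 0.0017. The Ighm probe set 1425385_a_at, lower by 3.27-fold with an adjusted p of 0.040, lost that call when any of 13 single arrays was left out, with adjusted p from 0.050 without lymphoma 12 to 0.15 without premalignant 3. The call of 1427756_x_at (adjusted p = 0.036) was lost without premalignant 2, 3 or 5.

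Ighv14-2 read 3.77 at the lowest, 8.14 at the median and 10.47 at the highest among lymphomas. It was 9.72-fold lower than in premalignant cells (adjusted p = 0.0040) and 24.3-fold lower than in wild type, with no overlap with either. Its lymphoma values ran without a wide gap from lymphoma 1 at 3.77 through lymphoma 5 at 5.37 to lymphomas 3 and 7 at 10.46 and 10.47.

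Kappa chain constant region transcripts stayed above the filter level in all lymphomas. The constant region probe set 1427455_x_at read 5.44 at the lowest, 11.44 at the median and 12.96 at the highest among lymphomas, and every lymphoma was below the lowest premalignant value of 13.36. It was 6.81-fold lower than in premalignant cells (-2.77 ± 0.97, adjusted p = 0.028). That call was lost on leaving out premalignant 2, 3, 4 or 5, each of which left a difference of -2.79 to -2.75 and an adjusted p of 0.051 to 0.056. Igkv8-30 (1452463_x_at) read 12.69 to 13.92 in premalignant cells and 5.46, 10.29 and 12.63 at the lowest, median and highest in lymphomas, and was 12.2-fold lower (adjusted p = 0.0034). The other Igkc probe sets, 1427660_x_at and 1452417_x_at, differed by -1.90 ± 0.85 and -1.73 ± 0.86 and were not called (adjusted p = 0.079 and 0.11), and their lymphoma ranges overlapped those of the premalignant arrays.

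Many kappa V segments were below the filter level throughout the lymphomas. Of the 21 kappa members, 9 were under log2 4 in all 13 lymphomas, compared with 1 of 14 heavy chain and 0 of 3 lambda chain members. Such members can have passed the filter only through the wild type and premalignant arrays, so these counts partly follow from the filter. The same count over all probe sets was not made. Igkv6-14 (1427860_at) read 6.97, 9.99, 8.60, 8.30 and 8.63 in premalignant cells and 3.05, 3.28 and 4.13 at the lowest, median and highest in lymphomas, a fall of at least 22.6-fold (adjusted p = 1.8e-10). Igkv6-20 (1451962_at) fell at least 4.55-fold (adjusted p = 4.7e-11), with a highest lymphoma value of 3.21. The kappa locus probe set 1425738_at read 8.16 to 9.87 in premalignant cells and had a lymphoma median of 2.25, at least 35.0-fold lower. Igkv9-120 (1460423_x_at) had a lymphoma median of 2.47 against premalignant values of 9.19 to 11.08, was 58.4-fold lower (adjusted p = 0.0016) and overlapped the premalignant range because of lymphomas 8 and 9. The 3 kappa members not called were the 2 Igkc probe sets above and Igkv19-93 (1427855_at), whose group means were both under 4.

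All 3 lambda chain members were lower in lymphomas. Iglv1 (1430523_s_at) read 9.41, 11.59, 9.97, 10.32 and 10.82 in premalignant cells and 2.33, 2.41 and 7.55 at the lowest, median and highest in lymphomas, without overlap. It fell at least 85.9-fold from premalignant cells (adjusted p = 8.7e-07) and at least 204.8-fold from wild type. The probe set for the constant region Iglc1 with Iglv1 (1424931_s_at) was 28.3-fold lower (-4.82 ± 1.14, adjusted p = 0.0023) and read 2.82, 5.04 and 9.80 at the lowest, median and highest in lymphomas. Iglv1 probe set 1427292_at was 3.62-fold lower (adjusted p = 0.0090).

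Of the 5 receptor partners and surrogate light chain genes tested, 1 was higher and 1 lower in premalignant than in wild type cells, and 2 were lower in lymphomas than in premalignant cells. Cd79a and Cd79b, the signalling partners of the receptor, were lower in lymphomas than in premalignant cells by 1.03 and 1.53 log2 units (adjusted p = 0.0013 and 8.4e-06). Of the 15 transcription factors of immunoglobulin enhancers and promoters that were tested, 7 were lower and 0 higher in lymphomas than in premalignant cells. Spib, an Ets family relative of Spi1, fell by 2.06, Ets1 by 1.91 and Ikzf1 by 1.84 log2 units, while Pou2af1, the octamer coactivator, differed by -0.02 (adjusted p = 0.92). In premalignant against wild type cells 6 were lower and 1 was higher, the last being Myc itself at 2.92 log2 units. Bcl6 and Irf8 fell by 1.81 and 1.15 in that comparison.

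Of the class switching and mutation list, 4 genes were tested, of which 3 (Ung, Msh6 and Apex1, which remove or recognise altered bases) were higher in lymphomas than in premalignant cells and 1 (Batf) lower. In premalignant against wild type cells 2 were higher and 0 lower. Of the recombination list, 5 genes were tested; none was called between lymphomas and premalignant cells, whereas 2 were higher in premalignant than in wild type cells. Rag1, below the filter level in wild type, rose at least 4.23-fold (adjusted p = 2.5e-05, and 0.14 in 1 fit over all 3 groups), and Xrcc6, a subunit of the end-joining factor Ku, rose 3.44-fold (adjusted p = 2.6e-04). Rag1 averaged 3.56 in wild type, 6.08 in premalignant and 5.26 in malignant arrays.

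Whether lymphomas vary more among themselves than the unselected cells do was asked of the spread within groups. The median SD of the 39 members was 0.57 in wild type, 0.81 in premalignant and 1.18 in malignant arrays, against 0.26, 0.29 and 0.33 over all probe sets tested. Of the 100 probe sets with the largest SD among the lymphomas, 12 were members. In a limma fit on the absolute deviations, 2 members were wider and 4 narrower in lymphomas than in premalignant arrays (5.13% and 10.3%, against 1.07% and 1.33% of all probe sets). Against wild type arrays, 2 were wider and 9 narrower (5.13% and 23.1%, against 0.741% and 2.18%). On simulated data this fit missed a wider spread in lymphomas that a fit on the log2 of the deviations mostly found.

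The members with wider spread were Ighm 1427329_a_at (SD 0.56 in lymphomas against 0.17 in premalignant arrays, adjusted p = 0.029) and the Iglc1 and Iglv1 probe set (2.70 against 0.98, adjusted p = 0.029). Against wild type arrays they were the same Iglc1 probe set (2.70 against 0.23, adjusted p = 0.0040) and Igkv9-120 1460423_x_at (3.17 against 0.31, adjusted p = 0.042). The narrower members had lymphoma means below the filter level, for example the kappa locus probe set 1427757_at, whose SD was 0.04 in lymphomas and 1.05 in wild type.

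The same fit on the log2 of the deviations, added after the data had been seen, called 7 wider and 6 narrower against premalignant arrays (17.9% and 15.4%, against 4.87% and 1.69% of all probe sets), and 9 and 8 against wild type arrays (23.1% and 20.5%, against 5.04% and 1.99%). It called the Igkc probe set 1427455_x_at wider in both, whose SD was 2.35 in lymphomas, 0.07 in premalignant and 0.16 in wild type arrays. The number of members called against premalignant arrays in the fit on absolute deviations, 6, fell to 2 without lymphoma 2 or lymphoma 8 and to 3 without lymphoma 11.

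**Figure D3:**
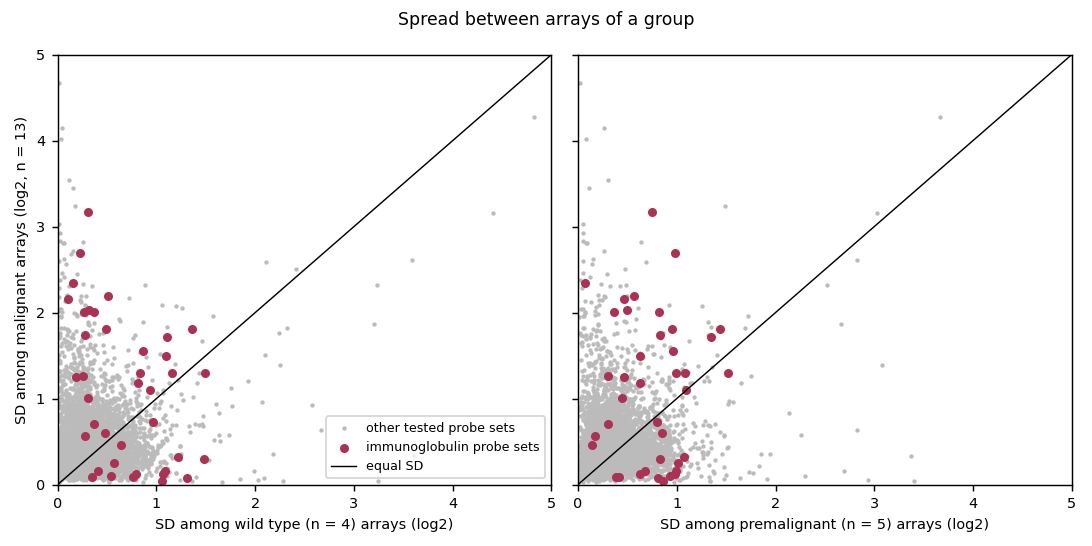
SD among the 13 lymphomas (vertical axis, log2 units) against the SD among the wild type (left) and premalignant (right) arrays for each probe set tested, with immunoglobulin probe sets in red and the line of equal SD. Igkv9-120, at an SD of 3.17 among lymphomas, is the highest red point, and the red points at the bottom are members below the filter level in lymphomas.

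The light chain pattern of each lymphoma was read from single members. A member was said to stand out in a lymphoma when it was above log2 4 and at least 3 log2 units (8-fold) above the median of the 13 lymphomas. Since each lymphoma is a single array, these are descriptions without a test. Of the 39 members, 13 stood out in at least 1 lymphoma, 10 of them in exactly 1, which made 21 pairs of a member and a lymphoma. Light chain members stood out in 6 lymphomas, numbers 2, 4, 8, 9, 11 and 13.

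Lymphoma 4 stood out for a single kappa V segment. Igkv15-103 read 10.48 there against a lymphoma median of 2.51, at least 89.5-fold higher, and the highest of the other lymphomas read 3.33. The value also exceeded the highest wild type and premalignant value, 9.16, by 1.32 log2 units. No other member stood out in that lymphoma, and its Igkc probe set 1427455_x_at read 12.22.

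Igkv9-120 (1460423_x_at) stood out in lymphomas 2, 8, 9 and 13, at 7.85, 10.76, 9.61 and 7.31 against a median of 2.47. The value in lymphoma 8 lay inside the wild type range of 10.28 to 11.03, and lymphoma 6 was next at 5.38. The other Igkv9-120 probe set tested, 1452536_s_at, read at most 3.05 in any lymphoma, where the first ran up to 10.76. An x_at probe set can bind related V segments.

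Lymphoma 2 stood out for 6 members, 5 of them light chains. The kappa locus probe set 1425738_at read 7.04 there against a median of 2.25, and the shared Igkv6-14, Igkv6-23 and Igkv8-19 probe set (1451965_at) 7.73 against 3.78. The sixth was Ighm 1425385_a_at, at 7.69 against a median of 4.03.

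The Iglc1 and Iglv1 probe set (1424931_s_at) was above the filter level in 7 lymphomas. It stood out in lymphomas 2, 8, 11 and 13, at 9.17, 8.63, 8.32 and 9.80, and lymphomas 12, 9 and 4 followed at 7.67, 6.77 and 5.04. In all of these the Igkc probe set 1427455_x_at read 11.36 or more. The Iglc1 and Iglv1 probe set was below the filter level in lymphomas 1, 3, 5, 6, 7 and 10, at 2.82 to 3.63. None of the 13 reached its wild type range of 11.10 to 11.65. In lymphoma 11 it was the only member that stood out. Another lambda chain probe set, Iglv1 1427292_at, had a lymphoma median above the filter level, at 5.77.

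**Figure D4:**
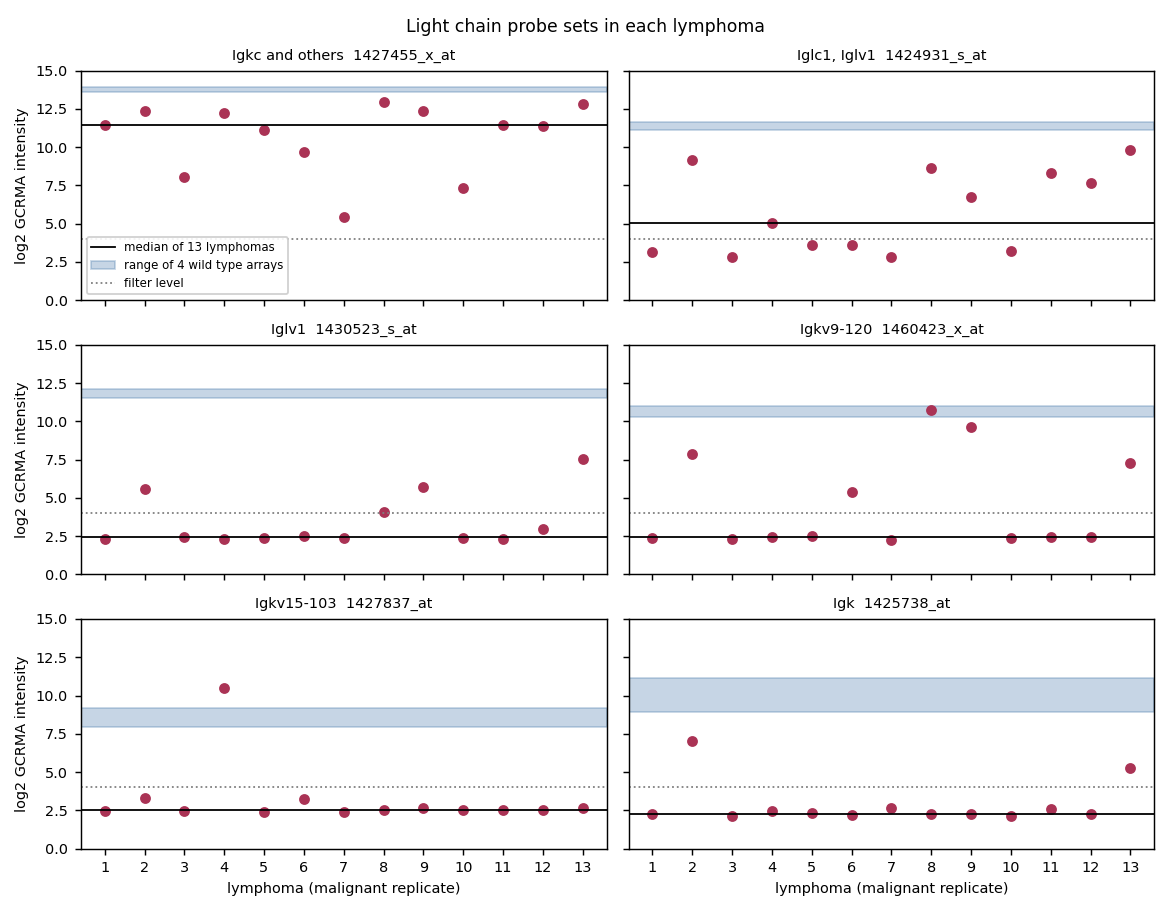
Log2 GCRMA intensity of 6 light chain probe sets in each of the 13 lymphomas (points), with the median of the lymphomas (line), the range of the 4 wild type arrays (band) and the filter level (dotted). Igkv15-103 is high in lymphoma 4 alone, Igkv9-120 in lymphomas 8 and 9 and less so in 2, 13 and 6, and the Igkc probe set is lowest in lymphoma 7 at 5.44.

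Lymphoma 13 stood out for the most members, 9, and had 27 of the 39 above log2 4. Besides Igkv9-120 and the 3 lambda chain probe sets, it stood out for 4 Ighm probe sets and Jchain. The Ighm probe sets 1425247_a_at, 1425324_x_at, 1427756_x_at and 1427870_x_at read 9.74, 9.62, 8.20 and 9.82, above every wild type and premalignant array for each. Jchain read 7.76, below the wild type range of 10.60 to 11.65. The mean over the plasma cell list was 5.66 in lymphoma 13 and 5.64 in lymphoma 1, against 4.68 to 5.16 in the other 11. Bpifa2, a salivary gland transcript, read 12.5 in lymphoma 13 and 9.4 or more in lymphomas 1, 2, 3, 4, 6 and 7. It read 2.5 or less in the other 6. The part of plasma or salivary gland cells in these values was not tested.

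Of all 507 pairs of a tested member and a lymphoma, 6 exceeded every one of the 9 wild type and premalignant arrays. These were the 4 Ighm probe sets and Iglv1 1427292_at in lymphoma 13, and Igkv15-103 in lymphoma 4. Measured from the wild type median in place of the lymphoma median, 0 members stood out in any lymphoma.

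Lymphomas 3, 7 and 10 were set apart by low kappa chain. In each, the 3 Igkc probe sets and Igkv8-30 (1452463_x_at) were at least 3 log2 units below the lymphoma median. The Igkc probe set 1427455_x_at read 8.08, 5.44 and 7.35 in these 3, then 9.70 in lymphoma 6 and 11.15 to 12.96 in the other 9. Their Ighm probe set 1427329_a_at read 11.27, 11.02 and 11.33, inside the range of the other lymphomas. Lambda chain did not stand out in any of the 4, where 1424931_s_at read 2.82 to 3.62.

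The 4 lymphomas with the lowest Igkc value were also the 4 with the highest Rag1 and the 4 with the highest Rag2, a pattern chosen after the values were seen. Rag1 read 8.65, 8.68, 8.97 and 8.09 in lymphomas 3, 6, 7 and 10 and 3.09 to 5.93 in the other 9. Of the surrogate light chain genes, Igll1 read 5.26, 7.21 and 8.60 in lymphomas 3, 7 and 10 and 3.65 in lymphoma 6. Its highest value, 12.22, belonged to lymphoma 1, together with 10.6 for Vpreb1, and there Rag1 read 3.10 and the Igkc probe set 11.44. Lymphoma 1 was also the one in which Ighv14-2 was far below the median, at 3.77, and had the fewest members above log2 4, 9 of 39.

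**Figure D5:**
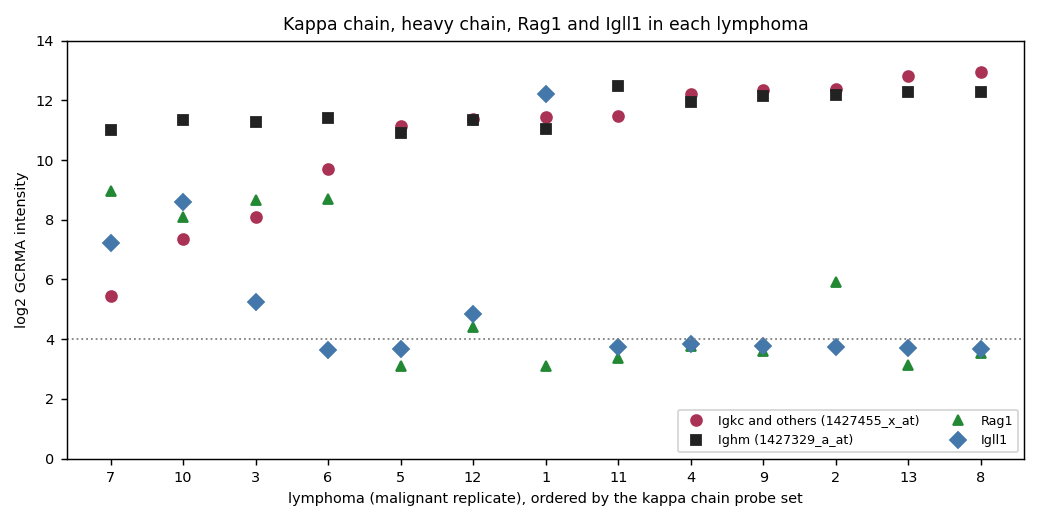
Log2 GCRMA intensity of an Igkc probe set, an Ighm probe set, Rag1 and Igll1 in each lymphoma, ordered from the lowest to the highest Igkc value. Rag1 is above 8 in the 4 lymphomas at the left (7, 10, 3 and 6) and at most 5.93 in the others, while Ighm stays between 10.90 and 12.47.

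In lymphomas 5, 6 and 12 no member stood out or lay far below the median. Their Igkc probe set 1427455_x_at read 11.15, 9.70 and 11.36, and the number of kappa members above log2 4 was 5, 8 and 5 of 21. Over all lymphomas that number ran from 4 in lymphoma 10 to 11 in lymphoma 13, compared with 18 to 21 in wild type arrays. The array carries probe sets for only part of the V segments, so a tumour's own V segment can lie outside those measured.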

How the data were processed

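RNA was hybridised to 22 arrays, and the deposited values are GCRMA intensities on a linear scale, made by the authors per the submitters' processing notes (version: not given in the sources used here). Values were taken to log2. The 64 control probe sets were left out, and 10789 probe sets above log2 4 on at least 4 arrays were tested with limma 3.58.1 (R 4.3.3), each comparison on its own 2 groups, two-sided, with Benjamini-Hochberg adjustment over all of them. The fit assumes equal spread in both groups. On simulated data with the groups' own spreads, in which few probe sets differed, false calls exceeded the nominal rate in all 3 comparisons. They made up 10.6% of calls between premalignant and wild type, 20.1% between malignant and premalignant and 14.7% between malignant and wild type arrays. Calls with an adjusted p just under 0.05 are therefore less certain than that value says. Spread was compared with limma on absolute deviations from the group mean. Probe sets were named from the platform annotation: 43 members had 1 symbol and 13 several, and 28 of their 29 genes matched RefSeq (GRCm38.p6). All groups are labelled as biological replicates, but separate mice are stated only for the lymphomas, so p-values may reflect technical spread in the other groups; the number of arrays limits the precision.

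Named by rule were constant region and Jchain probe sets, the 5 largest called falls and rises of each comparison, the 10 members of largest SD among lymphomas and those that stood out. Not all of them are given with their values in every comparison. Members and lists (receptor partners, recombination, class switching, transcription factors, plasma, T, monocyte, neutrophil, erythroid, salivary, stromal and B cells) were chosen with earlier results of these data known. Alternatives changed the filter, scaling, floor, samples, weights, variance prior, replicate block and test, and left out each array.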

Additional observations from a re-analysis of the deposited data

Results flagged for a closer look

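In 11 of 78 member and group combinations with 4 or 5 arrays, 1 array lay apart from the others by Dixon's criterion, which chance alone does in about 1 in 20. Premalignant 1 accounted for 6 of these and was the lowest in each. It read 9.51, 9.78 and 9.63 for the Igha probe sets 1421653_a_at, 1425763_x_at and 1429381_x_at, where the other 4 premalignant arrays lay between 11.62 and 12.24. It read 12.48 for Ighm 1427329_a_at (others 12.79 to 12.91), 5.20 for Igkv14-111 1451951_at (others 6.81 to 7.20) and 9.19 for Igkv9-120 1460423_x_at (others 10.60 to 11.08).

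Premalignant 5 was the highest for Igkv19-93 1427855_at, at 4.02, and for the Igkc probe set 1452417_x_at, at 11.43 against 9.33 to 9.94. Among wild type arrays, wild type 4 was the highest for 1427576_at (Igkv6-14, Igkv6-23 and Igkv8-19) at 6.13, wild type 1 the lowest for 1451965_at of the same genes at 9.10, and wild type 3 the highest for Iglv1 1430523_s_at at 12.10.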

How the results depend on the processing

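No member reversed its direction past the threshold under any alternative run. Of the members lower in the main analysis, 33 of 36 (malignant against wild type), 27 of 33 (malignant against premalignant) and 2 of 11 (premalignant against wild type; Ighg3 and Igkv14-111) stayed called under every alternative run and whichever single array was left out. The 11 members lower in premalignant cells became 6 with no filter on dim probe sets, 7 in 1 fit over all 3 groups, and 6 to 11 when 1 array was left out. Centring on the spike-in controls gave 999 called probe sets in place of 2635 between premalignant and wild type cells, and 2942 in place of 4658 between malignant and premalignant cells. Without the filter 9978 and 14578 probe sets were called in the comparisons of lymphomas with premalignant and wild type cells (6557 in the latter with it), and without the arrays with erythroid transcripts 1694 between premalignant and wild type cells.

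Members called different in spread between malignant and premalignant arrays numbered 6, and became 0 with deviations from the group median (limma; 17 at an unadjusted p under 0.05), 11 with no filter, 14 with values under log2 4 set to 4, 13 with the log2 of the deviations and 2 to 9 without 1 array. Against wild type arrays the 11 became 7 with the group median and 17 with the log2 of the deviations. The 6 lymphomas in which a light chain member stood out became 0 with the wild type median as reference. The cause of these moves was not tested. Samples of 2 groups that share a replicate number did not all deviate together (correlations of 0.12, -0.06, 0.25 and 0.24 between premalignant and wild type), so that the number was not used as a pairing. With it as a replicate block 12 members were lower between premalignant and wild type cells (4 calls gained, among them Ighm 1425247_a_at with an adjusted p of 0.016, and 3 lost), 33 between malignant and premalignant cells (2 gained, and Ighm 1425385_a_at and Igkv15-103 lost) and 35 between malignant and wild type cells (1 lost), and 2895 of all probe sets were called between malignant and premalignant arrays. An exact permutation test of each of 18 constant region and Jchain probe sets gave, unadjusted, no smaller value than 0.0079 between premalignant and wild type cells, the least that 4 and 5 arrays allow. Values below log2 4 limit the size of a fall, and 1 array a lymphoma leaves its pattern without a replicate.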
